A study of Mus musculus with 4 samples.

Results

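KN1 is a mouse neural stem cell (NSC) line derived from epiblast stem cells of the 129/Sv strain, and all 3975 cells of its normalized single-cell table were taken, of 15255 cells in the tables of 4 lines. KN1 was grown with EGF and FGF2, each at 10 ng/ml, and with no modulator of Wnt signalling. XN4 (3927 cells) and XN1 (3905 cells) had the same growth factors and 10 µM XAV939, a tankyrase inhibitor that lowers Wnt signalling. Their XAV939 came from different suppliers, and the paper reports that the XAV939 used for XN1 formed crystals. It infers that the crystals lowered the effective concentration. CN4 (3448 cells) had the same growth factors and 2 µM CHIR99021, a GSK3 inhibitor that raises Wnt signalling. In the paper, KN1 and XN1 came from the same derivation series, and XN4 and CN4 from a different series. The lines were made to ask how the Wnt input during derivation relates to the region of the central nervous system that an NSC line resembles, and whether the cells of a line express genes of different regions together. Each line is 1 derivation and 1 library of mRNA captured on barcoded beads in microwells (BD Rhapsody), so that a difference between lines and a difference between libraries cannot be told apart, no test between lines was possible, and intervals cover counting error only.

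NSCs of the neural tube carry a positional code along the body axis. *Hox* genes, which lie in clusters and are read out in order from hindbrain (HB) to caudal spinal cord (SC), mark the posterior levels, while factors such as *Otx2*, *Lhx2* and *Sp8* mark anterior ones, and Wnt signalling is known to promote posterior identity. *Lin28b*, an RNA-binding protein that blocks maturation of let-7 microRNAs, marks early progenitors. *Malat1* is an abundant noncoding RNA kept in nuclear speckles.

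The KN1 table held 27563145 reads, with a median of 5862 reads per cell and from 2852 to 12385 between the 10th and 90th percentiles. The median number of genes detected was 833 per cell, against 2479 in XN4, 2257 in XN1 and 2824 in CN4, whose median depths were 7796, 4637 and 6572 reads. A gene detected in a KN1 cell had on average 7.39 reads, and only 20.8% of these values were single reads, against 2.14 to 3.90 reads and 34.9% to 58.6% in the other lines. After each cell was thinned to 3000 reads, leaving out 464 KN1 cells with fewer, the medians were 741 genes in KN1 and 1579 to 1768 in the other lines. A share of cells with a read is therefore lower in KN1 than in another line at the same level in summed reads, and the order of lines is taken from the summed reads throughout. KN1 shared 19 to 21 cell barcodes with each other line, and pairs of the other lines shared 14 to 17. Of 14672 genes listed for KN1, 14568 had a single length in the annotation.

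The KN1 cells had the genes of an NSC line. All 18 genes of the neural stem cell list were found, among them the intermediate filament gene *Nes* at 654.9 reads per 1000000 reads of the library (RPM; 48.1% of cells), *Slc1a3*, a glutamate transporter of radial glia, at 2723.8 (79.9%), *Fabp7*, a fatty acid-binding protein of radial glia, at 385.7 (29.0%), and the stem cell factor *Sox2* at 116.7 (13.9%). *Sox2* was at 304.8 RPM in XN1 and 584.4 in CN4, but at 1.25 in XN4, where no read of *Fabp7* was found. The 13 connective tissue markers summed to 10671 RPM in XN4 and to 112 in KN1, 325 in XN1 and 197 in CN4. Ratios of KN1 to XN4 below therefore compare an NSC line with a library that goes against its label for these genes.

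Promoter windows of the 3 protein-coding marker genes of KN1, *Sp8*, *Lin28b* and *Hoxa7*, are shown to place them in the genome. They are RefSeq sequences of build GRCm38.p6, each with 250 bases before and 50 after an annotated start, and capitals mark matches on either strand to CTTTGA (the core of the TCF/LEF motif through which Wnt acts), GGGCGG (a GC box) or TATAAA (bound by TBP). The motifs do not overlap one another here, and of 32851 windows of all genes, 16.0%, 35.7% and 13.6% hold them, respectively.
Sp8, chr12:118846079-118846378, plus strand: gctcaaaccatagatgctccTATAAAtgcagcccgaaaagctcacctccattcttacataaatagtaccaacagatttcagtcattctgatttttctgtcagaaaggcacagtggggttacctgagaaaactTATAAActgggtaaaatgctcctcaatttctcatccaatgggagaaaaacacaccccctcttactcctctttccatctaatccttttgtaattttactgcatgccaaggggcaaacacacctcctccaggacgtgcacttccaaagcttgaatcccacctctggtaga
Lin28b, chr10:45470152-45470451, minus strand: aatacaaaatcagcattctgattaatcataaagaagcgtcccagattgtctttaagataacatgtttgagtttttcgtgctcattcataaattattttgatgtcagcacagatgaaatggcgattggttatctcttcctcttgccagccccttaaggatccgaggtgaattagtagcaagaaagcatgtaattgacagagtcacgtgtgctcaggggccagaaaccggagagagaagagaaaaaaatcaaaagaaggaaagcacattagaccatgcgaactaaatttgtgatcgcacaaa
Hoxa7, chr6:52218524-52218823, minus strand: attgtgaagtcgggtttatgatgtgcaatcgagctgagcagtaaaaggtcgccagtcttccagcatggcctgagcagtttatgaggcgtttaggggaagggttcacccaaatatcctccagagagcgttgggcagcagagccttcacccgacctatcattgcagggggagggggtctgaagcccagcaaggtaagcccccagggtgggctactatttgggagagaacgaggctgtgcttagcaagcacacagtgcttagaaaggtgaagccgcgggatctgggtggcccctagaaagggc
The *Sp8* window holds 2 TATAAA matches and neither other motif, and the windows of *Lin28b* and *Hoxa7* hold none of the 3 sets of letters. *Sp8* has 3 such windows, and the one at the GENCODE gene start is printed; the *Lin28b* and *Hoxa7* windows lie 16194 and 3281 bases inside the longer gene models of GENCODE.

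*Sp8*, a zinc-finger factor of anterior and intermediate neural progenitors (chromosome 12, 118846329 to 118852576), had 3713 reads in 560 KN1 cells. This was 134.7 RPM and 14.1% of cells (exact Clopper-Pearson 95% interval, 13.0% to 15.2%). XN1 and CN4 had 0 reads of it in 3905 and 3448 cells, which by a limit of 3 counts allows a share of cells with a read of up to 0.0768% and 0.0870%, and XN4 had 2 reads in 2 cells. Against a floor of 3 reads in a library, KN1 was at least 865-fold higher than XN1 and at least 1030-fold higher than CN4. Its share of cells was 277 times that of XN4 (95% interval, 76.2 to 2290), which rests on the 2 XN4 cells. This interval covers only the counting of cells in the libraries, between which shares of cells are not level. These values are a description. The *Sp8* reads were not confined to deep cells, since the shallowest, middle and deepest of 3 equal groups of KN1 cells had 144, 128 and 135 RPM, in 6.79%, 12.8% and 22.6% of cells.

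*Lin28b* (chromosome 10, 45376620 to 45486395) was at 181.8 RPM in KN1, with reads in 16.3% of cells (15.2% to 17.5%), and at 1.11, 0.623 and 1.18 in XN4, XN1 and CN4, respectively. KN1 was 164-fold, 292-fold and 155-fold higher by RPM. After the length pattern described below was taken out, it was 118-fold, 189-fold and 106-fold higher. After thinning to 3000 reads, 13.8% of KN1 cells and 0.173% to 0.313% of the cells of the other lines had a read of it. The levels in the 3 other lines lay close together and far below KN1.

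*Hoxa7*, a *Hox* gene of thoracic SC levels (chromosome 6, 52214491 to 52221854), followed another order. It was at 236.6 RPM in KN1 and 236.8 in CN4, against 12.1 in XN1 and 0.265 in XN4. The share of cells with a read was 23.1% in KN1 (21.8% to 24.4%) but 59.1% in CN4, against their nearly equal RPM, so no order was read from it. KN1 and CN4 had nearly the same level of this gene, and both stood above the lines grown with XAV939.

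*Malat1* (chromosome 19, 5795690 to 5802672) took 3.20% of the KN1 reads, against 1.42% in XN4, 0.530% in XN1 and 0.328% in CN4. Between the 10th and 90th percentiles of KN1 cells, its share ran from 0.595% to 6.35% with a median of 2.72%, and the medians of the other lines were 1.39%, 0.411% and 0.226%. In XN4 cells it ran from 0.273% to 4.85%. KN1 was thus highest by its total and its median, but its cells overlapped those of XN4 over most of their range.

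*Sp8*, *Lin28b* and *Hoxa7* were spread over the KN1 cells nearly as if independent of each other. Of the KN1 cells, 57.0% had a read of none of these genes, 33.5% of 1, 8.50% of 2 and 1.01% (40 cells) of all 3. *Sp8* and *Hoxa7*, from anterior and thoracic classes, were found together in 170 cells, where 163 would be found if they were independent within 20 strata of cells of like depth, a ratio of 1.04. The ratios were 1.00 for *Sp8* and *Lin28b* (112 cells) and 0.987 for *Lin28b* and *Hoxa7* (176 cells). Without strata the ratios were 1.18 to 1.31. At this rate of capture, a cell without a read of a gene may still express it.

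Long genes had a larger share of the reads in KN1 than in any other line. The 11096 genes that could be compared, those listed in KN1 with a mean of at least 5 RPM over the 4 lines, were put in 10 classes of genomic length with equal numbers of genes. The longest class, of 154 kb or more, took 24.9% of the KN1 reads of these genes and 8.72%, 7.64% and 7.63% of those of XN4, XN1 and CN4, while the shortest class, of 5.50 kb or less, took 9.52% in KN1 and 15.7% to 17.8% in the others. The median log2 ratio of KN1 was 1.46 to XN4 (interval, 1.29 to 1.63), 1.77 to XN1 (1.62 to 1.88) and 1.59 to CN4 (1.49 to 1.71) in the longest class, and -0.47, -0.59 and -0.62 in the shortest. The longest class therefore stood above the shortest by 1.93 (1.67 to 2.20), 2.35 (2.13 to 2.56) and 2.21 (2.04 to 2.40) on the log2 scale against XN4, XN1 and CN4, respectively. These intervals are of the medians over genes, which are not replicates. The mean used to choose the genes counts KN1 itself. With it taken over the 3 other lines, the differences were 1.77, 2.22 and 2.12.

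**Figure D1:**
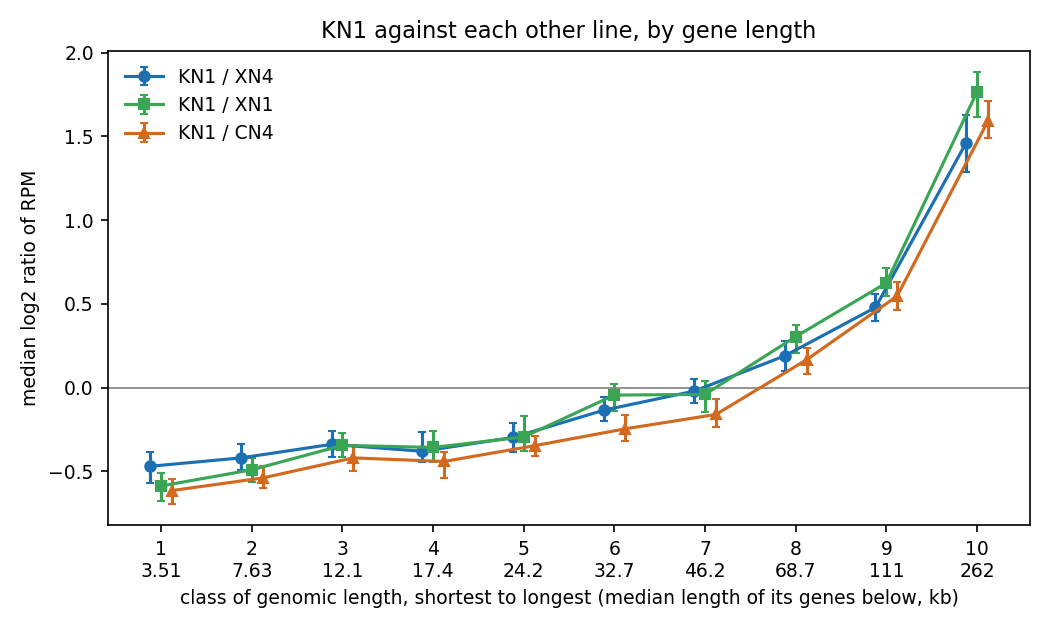
Median log2 ratio of RPM of KN1 to each other line (y) in 10 classes of genes ordered by genomic length (x, with the median length of each class in kb). Bars are exact 95% intervals of the median over genes; all 3 curves start between -0.62 and -0.47 and end between 1.46 and 1.77.

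The pattern was larger over genomic than over spliced length. In classes of merged exon length the same difference was 1.00, 1.27 and 1.11. The 271 genes with a single exon, which have no intron, had median log2 ratios of -0.66, -0.85 and -0.88 to XN4, XN1 and CN4. Their median length was 2.65 kb, and the shortest length class, of 5.50 kb or less, had medians of -0.47, -0.59 and -0.62. The single-exon genes were not compared with genes of like length, so their values are a description. The 166 lincRNA genes, with a median length of 18.9 kb, had medians of 0.93, 1.40 and 1.15, above the medians of -0.07, -0.03 and -0.12 over all genes compared.

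Most KN1 cells shared the pattern. Genes of the longest class gave a median of 25.6% of a KN1 cell's reads, with 13.4% and 33.2% at the 10th and 90th percentiles, against medians of 9.28% in XN4, 7.49% in XN1 and 7.58% in CN4. Of the KN1 cells, 93.6% (92.8% to 94.4%) lay above the 95th percentile of XN1 cells, 93.1% (92.3% to 93.9%) above that of CN4 cells and 79.8% (78.5% to 81.1%) above that of XN4 cells. The medians were 24.7%, 26.6% and 25.6% in the shallowest, middle and deepest of the 3 groups of KN1 cells, so that the groups of depth lay close together.

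**Figure D2:**
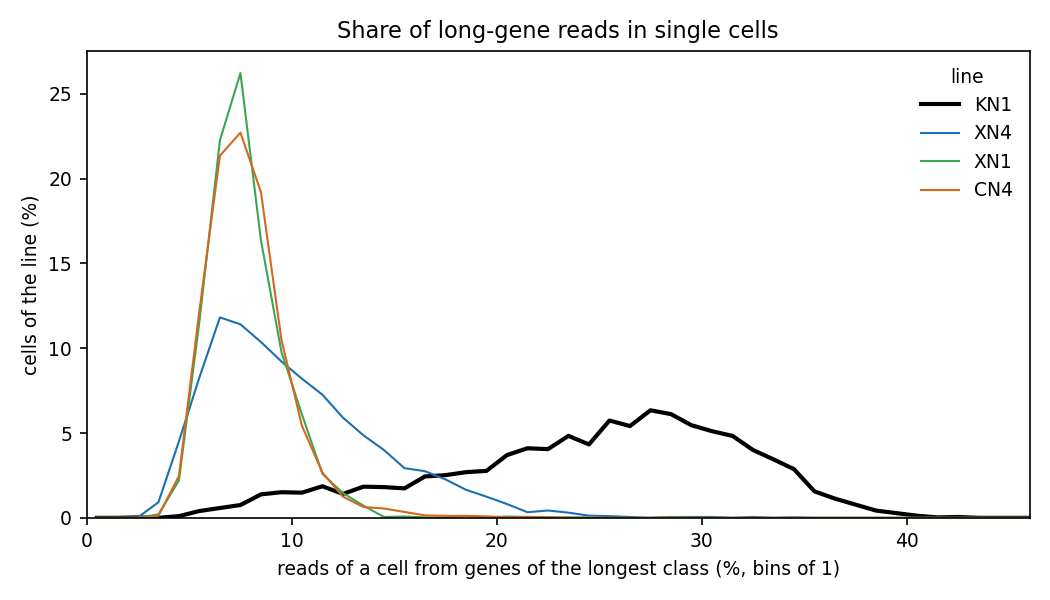
Percent of the cells of each line (y) by the percent of a cell's reads that came from genes of the longest class (x, bins of 1). KN1 cells spread broadly around their median of 25.6%, while XN1 and CN4 form narrow peaks around their medians of 7.49% and 7.58%, and XN4 has a tail between them.

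A minority of 254 KN1 cells lay at or under the 95th percentile of XN1 cells (11.1%). They were chosen by their long-gene share, so that the values of long genes in them are given as a description only. The region genes of KN1 were found in them: *Hoxa7* was at 370 RPM, *Hoxb8* at 213 and *Sp8* at 157, against 229, 116 and 133 in the other 3721 KN1 cells, and *Xist*, which was at 9.24 RPM in XN1, was at 3038 and 2527. *Malat1*, a short gene, was at 6259 RPM in the 254 cells, below the 14187 of XN4, and at 33530 in the rest. *Lin28b* was at 69.7 and 188, and *Olig2*, a factor of ventral progenitors and the oligodendrocyte lineage, at 585 and 294. The median number of genes per cell differed little, at 794 and 836. When only the 254 cells stood for KN1, the longest class differed from the shortest by -0.21, 0.21 and 0.0385 on the log2 scale against XN4, XN1 and CN4.

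To compare genes without the length pattern, the median log2 ratio of a gene's length class was taken from its own, and a gene was called at a remaining difference of 4-fold or more. KN1 was called higher than all 3 other lines for 178 genes, which is 1.6% of the genes compared, and lower for 131, which is 1.18%. The filter counts KN1 itself: 266 genes passed it through their KN1 level, of which 83 were called higher and 0 lower, and genes not listed in KN1 could not be called lower, so the 2 counts cannot be set against each other. With the mean taken over the 3 other lines, 102 genes were higher and 127 lower. Against single lines, higher calls made up 9.47% (1051 genes) for XN4, 6.49% (720) for XN1 and 4.43% (491) for CN4, and lower calls 7.45% (827), 6.34% (703) and 3.67% (407). Without the classes, 395 genes were called higher than all 3, of which 60.0% were in the longest class, and 147 lower. With them, the longest class still had the largest share of higher calls, 3.43% against 0.992% to 2.25% in the other classes, and also the largest share of lower calls, 2.61% against 0.631% to 1.98%. Of the 38 higher calls in the longest class, 19 were of genes that passed the filter only through their KN1 level. Its share of higher calls is therefore a description. All 15 of the genes named in each direction below were also called without the classes.

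*Sp8* and the potassium channel gene *Kcnb2* had the largest ratios to the nearest line of the genes named as higher in KN1. Among the 67 genes of those called that could be named and had a read in at least 10% of KN1 cells, the 15 with the largest centred ratio to the nearest line held *Sp8* and *Lin28b*, 4 calcium or potassium channel genes (*Kcnb2*, *Cacna1d*, *Cacna2d3* and *Cacnb2*), the glutamate receptor subunit *Grin2a*, and *Lrrc7*, *Dscam*, *Nkain2*, *Fam155a*, *Hs3st2*, *Slc17a9*, *Fam185a* and *Taf1d*. Of the 15 genes, 9 (*Sp8*, *Kcnb2*, *Lin28b*, *Cacna1d*, *Grin2a*, *Hs3st2*, *Slc17a9*, *Fam155a* and *Cacna2d3*) passed the filter only through their KN1 level, so that they could be called in 1 direction only, and their values are a description. *Kcnb2*, a delayed-rectifier potassium channel, was at 349.7 RPM in KN1 (20.3% of cells) and at 0.963, 0.830 and 0.828 in XN4, XN1 and CN4. *Cacna1d*, the pore subunit of an L-type calcium channel, was at 402.0 against 1.83, 1.30 and 4.49. *Grin2a*, of NMDA receptors, was at 403.8 against 3.56, 6.95 and 2.79. *Dscam*, a cell adhesion molecule of neurons, was at 401.2 against 0.939, 6.54 and 13.7. The 3 other lines were at 13.7 RPM or fewer for each of these 4 genes, and differed most among themselves for *Dscam*. All 4 are in the longest length class, as are *Cacna2d3*, *Cacnb2*, *Lrrc7*, *Nkain2* and *Fam155a*. With 20 length classes the centred ratios of all of these fell, on the log2 scale from 6.95 to 6.52 for *Kcnb2* and from 3.28 to 2.85 for *Dscam*. The 15 genes were all still called.

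*Nkain2*, which encodes a protein that binds the sodium pump, was the most abundant in KN1 of these 15 by its reads, at 3434.4 RPM and in 70.2% of cells, against 7.08, 24.8 and 113.9. *Cacnb2*, an accessory calcium channel subunit, was at 1658.7 against 42.6, 42.6 and 55.0. *Taf1d*, a subunit of a polymerase I factor and one of the few short genes here (10.8 kb), was at 1271.1 in KN1 against 165.6, 75.2 and 131.7. When only the 254 KN1 cells with a low long-gene share were used, 7 of the 14 genes that could then be compared were still called. *Cacna2d3*, *Cacnb2*, *Fam155a*, *Fam185a*, *Grin2a*, *Nkain2* and *Taf1d* were not. These cells were chosen by a low share of reads from the longest class. That class holds these genes except *Fam185a* and *Taf1d*, so the loss of its members follows in part from the choice and is a description only. With each gene counted once per cell, *Nkain2* and *Cacnb2* were no longer called, with centred log2 ratios to the nearest line of 1.34 and 1.79 in place of 3.32 for each.

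**Figure D3:**
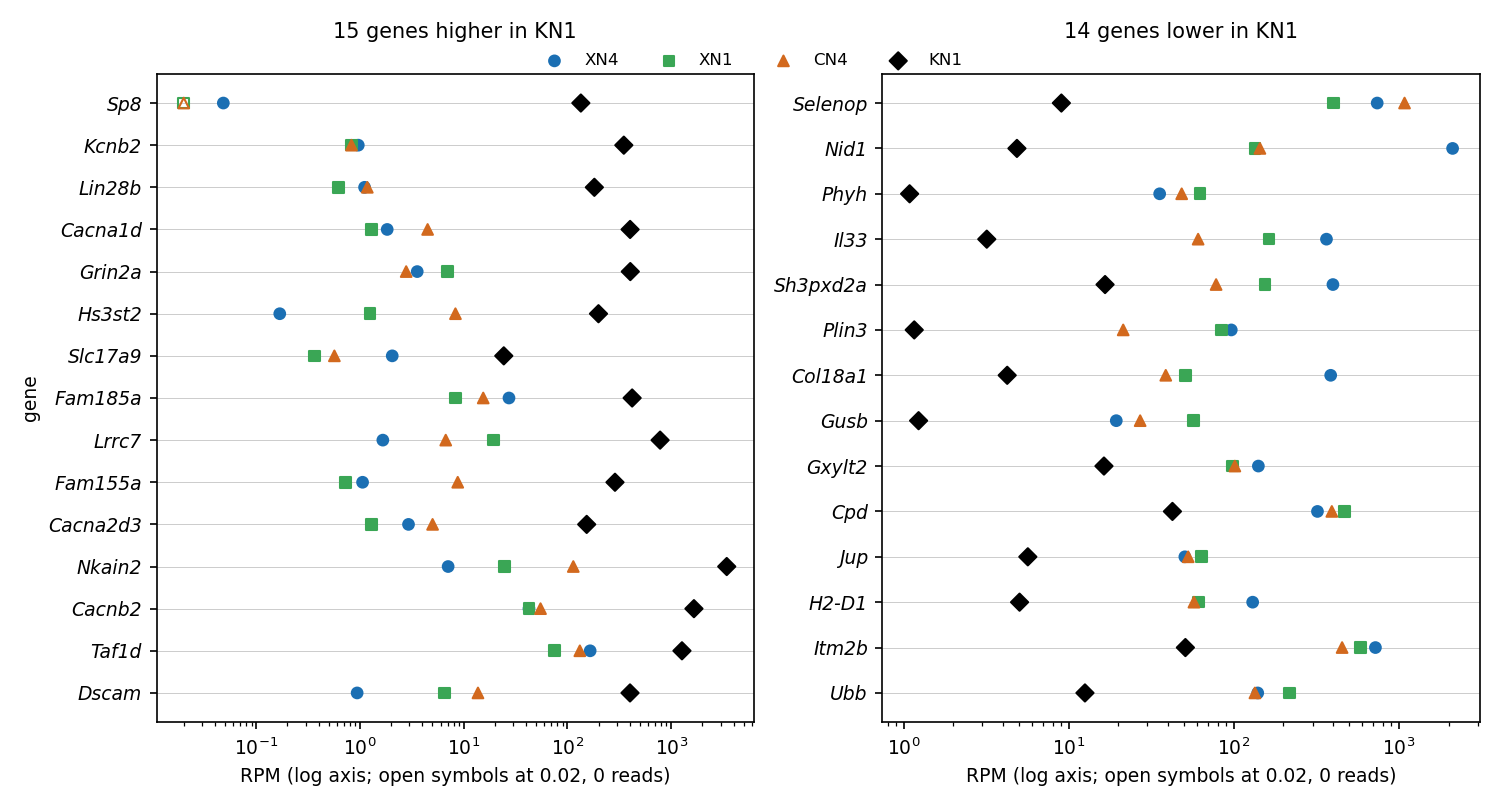
RPM (x, log axis) in each line for the 15 genes called highest (left) and 14 of the 15 called lowest (right) in KN1 against the nearest other line after centring on length class. Each point is 1 library. The genes were chosen because KN1 differs 4-fold or more from all 3 other lines after centring, so KN1 lies apart by this choice. Sp8 is at 134.7 in KN1 and at or below 0.0481 in the others.

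*Selenop* and *Nid1* had the largest ratios to the nearest line of the genes named as lower in KN1. *Selenop*, a secreted selenium carrier, was at 9.03 RPM in KN1 and at 739.1, 400.9 and 1082.4 in XN4, XN1 and CN4. *Nid1*, a basement membrane protein, was at 4.86 against 2115.4, 134.3 and 144.0, and *Col18a1*, a basement membrane collagen, at 4.24 against 386.4, 51.1 and 38.7. The other lines thus had these genes at levels from 38.7 to 2115.4 and differed among themselves. That KN1 lay below all of them follows from how the genes were chosen.

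*Il33*, an alarmin of nuclei in resting cells, was at 3.19 RPM in KN1 against 364.3, 163.9 and 60.8. *H2-D1*, a class I histocompatibility gene, was at 5.04 against 130.2, 61.2 and 57.4. *Ubb*, a stress-responsive ubiquitin gene, was at 12.6 against 139.7, 218.4 and 134.3, and *Itm2b*, a widely expressed membrane protein gene, at 50.9 against 721.2, 587.8 and 453.1. The lysosomal enzyme gene *Gusb*, the carboxypeptidase gene *Cpd*, the junction protein gene *Jup* and *Phyh*, *Plin3*, *Sh3pxd2a* and *Gxylt2* were also among the 15. With only the 254 KN1 cells, all but *Itm2b* of the 15 were still called lower. With each gene counted once per cell, *Itm2b* and *Cpd* were no longer called, with ratios of -1.64 and -1.81 in place of -2.81 and -3.11.

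Some genes of the other lines were not listed for KN1 at all. A gene that was not listed in another line's table had reads in at most 9 of its cells, apart from 33 genes cut from the end of the XN4 table. The reads behind an unlisted KN1 gene were not analysed here, so no fold is given. Among those with the highest level in the lowest other line were the collagen gene *Col1a2* (131.9, 76.7 and 24.3 RPM in XN4, XN1 and CN4), the trafficking gene *Unc93b1* (65.4, 129.4 and 21.3) and *Zic5*, a factor of the dorsal neural tube (45.5, 18.2 and 64.6). *Ttc30b*, *A2m*, *Itpripl2*, *Cyp1b1*, *Plp2* and *Dact1* were also among them.

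By its *Hox* genes KN1 was a posterior line. Of the HB class *Hox* genes (such as *Hoxa3*, *Hoxb3* and *Hoxb4*), 8 of 11 were listed and 7 compared, and of these 7 were called higher than XN4, 4 higher than XN1 and none higher than CN4, with 1 lower than CN4, beside 9.47%, 6.49% and 4.43% of all genes called higher and 3.67% lower than CN4. Among these, *Hoxd4* (9.83 RPM against 2.24, 0 and 8.67) passed the filter only through its KN1 level. XN1 was above KN1 for *Hoxa3* (31.0 against 8.31 RPM) and *Hoxa4* (25.4 against 7.76). Of the cervical SC class, 3 of 5 were compared. Of these, 3 were called higher than XN4, 2 higher than XN1 and none in either direction against CN4. *Hoxc5* and *Hoxc6*, the rest of this class, were not listed in KN1 and could not be called lower. Of the thoracic SC class, 6 of 11 were compared, and 4 were not listed in KN1. Of those compared, 5 were called higher than XN4, 6 higher than XN1 and 2 lower than CN4. None of the lumbar and caudal *Hox* genes was listed, and they summed to 0.0963, 0 and 1.18 RPM in XN4, XN1 and CN4.

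The KN1 levels ran along the *Hoxb* cluster from *Hoxb3* at 105.2 RPM and *Hoxb4* at 51.1 through *Hoxb5* at 48.6, *Hoxb6* at 81.5 and *Hoxb7* at 28.3 to *Hoxb8* at 121.4 and *Hoxb9* at 40.0. In CN4 the same genes were at 112.0, 54.3, 35.0, 176.4, 77.6, 343.1 and 333.1, so that the lines were close at *Hoxb3* and *Hoxb4*, KN1 was higher at *Hoxb5* and CN4 was higher from *Hoxb6* on, with a raw log2 ratio of -3.06 at *Hoxb9*. CN4 was also higher at *Hoxb2*, the HB class gene called lower, at 66.3 against 10.3 in KN1. XN1 had none of these 7 genes above 0.259 RPM and XN4 none above 0.120. Of the clusters, XN1 had *Hoxa* genes, with *Hoxa5* at 86.8 and *Hoxa7* at 12.1, and in KN1 *Hoxa5* was at 181.1, beside 188.4 in CN4.

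The *Hoxc* cluster set KN1 apart from CN4. *Hoxc8* was at 2.32 RPM in KN1 and 296.5 in CN4, a raw log2 ratio of -7.00, and at 0.0481 and 0.104 in XN4 and XN1. *Hoxc5*, *Hoxc6* and *Hoxc9*, at 33.9, 66.1 and 30.6 in CN4, were not listed in KN1. *Hoxd8* was at 17.6 RPM in KN1, 39.6 in XN4 and 45.2 in CN4. KN1 was thus near CN4 at *Hoxa5*, *Hoxa7*, *Hoxb3* and *Hoxb4* and far below it at *Hoxc8*. It was below CN4 at *Hoxa3* (8.31 against 19.7 RPM), and *Hoxa9*, at 20.9 in CN4, was not listed.

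**Figure D4:**
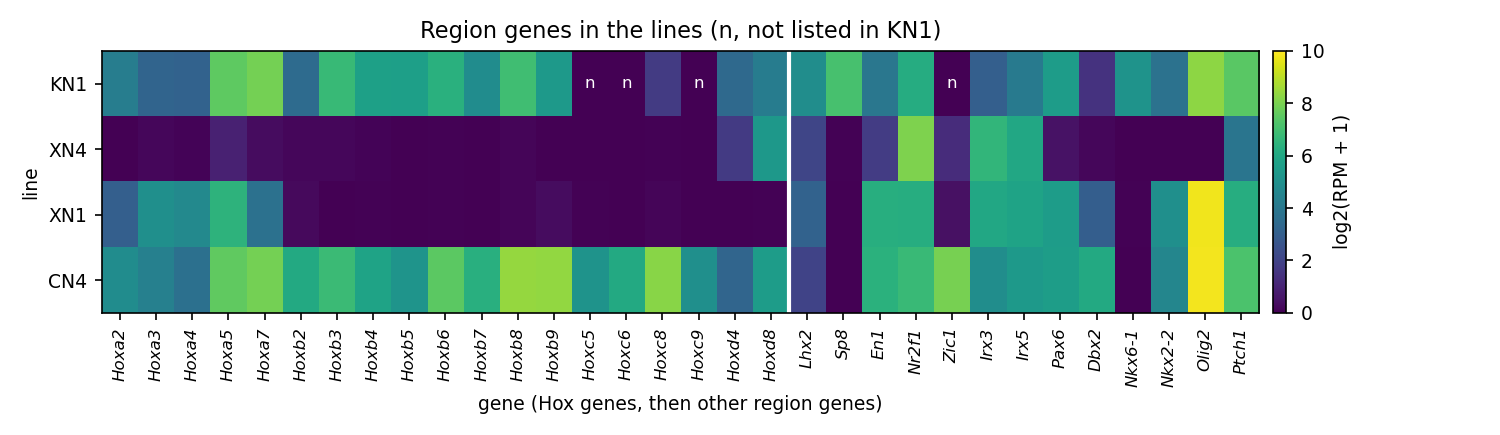
Level of Hox genes and other region genes (x) in each line (y), as log2 of RPM plus 1; n marks genes that the KN1 table does not list. KN1 and CN4 are filled along the Hoxa and Hoxb genes, XN1 only along Hoxa, and Sp8 and Nkx6-1 stand out in KN1.

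The *Hox* cofactors, homeodomain proteins that bind DNA with Hox proteins, were all found. *Meis2* was at 602.1 RPM in KN1 against 27.9, 28.3 and 126.1 in XN4, XN1 and CN4, and *Meis1* at 399.3 against 189.8, 42.2 and 133.2. *Pbx4* was called higher than all 3, at 55.6 against 3.61, 10.2 and 7.19. The list's medians were 0.22, 1.08 and 0.66, with 1 of 9 called higher than all 3 lines and none lower, beside 1.6% and 1.18% of all genes. The same shares are the background for calls against all 3 lines in each list below. Here and below, medians are of centred log2 ratios to XN4, XN1 and CN4, whose value over all genes compared is 0. For the 18 neural stem cell genes they were 4.58, -0.16 and -0.81, and none was called against all 3 lines.

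Of 17 forebrain and midbrain factors, 5 were listed in KN1 and 4 compared. *Sp8* was called higher than all 3 lines. *Lhx2* was at 29.1 RPM against 3.25, 7.78 and 3.05, while *En1*, a factor of the midbrain-hindbrain boundary, was at 14.5 in KN1, 75.5 in XN1 and 82.7 in CN4. *Otx2* and *En2* were not listed. *Nr2f1*, a nuclear receptor of forebrain progenitors, was at 72.8 against 270.0, 75.0 and 108.3. *Sp8* and *Lhx2* passed the filter only through their KN1 level, so that their place above the other lines is a description; *Sp8* is also in the list of intermediate factors below.

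Along the dorsal to ventral axis, KN1 had *Nkx6-1*, a factor of ventral progenitors, at 34.5 RPM (4.05% of cells), where XN1 had 0.0519, from 1 read, and XN4 and CN4 had 0 reads. *Olig2* was lower in KN1 than in XN1 and CN4, at 310.4, 890.2 and 895.8, as was *Nkx2-2*, at 12.7, 30.9 and 23.1. *Ptch1*, the Hedgehog receptor and a target of that pathway, was at 172.2 in KN1, 13.7 in XN4, 73.6 in XN1 and 141.5 in CN4. *Pax6*, of intermediate progenitors, was level at 44.8, 45.7 and 45.9 in KN1, XN1 and CN4. *Dbx2*, also intermediate, was at 1.74 in KN1 and 65.8 in CN4. Of the dorsal factors, *Pax3* was at 0.508 in KN1 and 35.3 in CN4, and *Zic1*, at 246.4 in CN4, was not listed. Of 6 intermediate, 4 ventral and 2 dorsal factors compared, *Sp8* and *Nkx6-1* were called against all 3 lines, and both passed the filter only through their KN1 level.

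Of 12 genes of developmental timing, 8 were compared, of which *Lin28b*, *Trim71* and *Dnmt3b* passed the filter only through their KN1 level, and the other 4 were not listed in KN1. *Hmga2*, a chromatin protein and let-7 target, was at 1010.7 RPM (54.6% of cells) against 220.2, 25.6 and 407.3 in XN4, XN1 and CN4. *Igf2bp3*, an RNA-binding protein, was at 330.3 against 56.7, 35.6 and 197.8, *Igf2bp2* at 259.6 against 79.2, 4.88 and 202.3, and *Trim71* at 18.97 against 10.1, 0.104 and 2.92. XN1 was lowest for all of these, and the list's medians were 0.99, 4.89 and 0.63, with 6 of 8 called higher than XN1, where 6.49% of all genes were. *Lin28b* alone passed 4-fold against all 3 lines. *Lin28a* was not listed.

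The nuclear factor I genes, known for the onset of gliogenesis, differed in their order. *Nfib* was at 1623.2 RPM in KN1 against 655.5, 585.4 and 1450.2, and *Nfia* at 1454.0 against 754.6, 720.1 and 647.5. These 2 are long genes, and their centred ratios were all below 0. *Nfic* was called lower than all 3, at 72.0 against 403.4, 320.1 and 266.6, where the raw log2 ratio to CN4 of -1.89 was short of 4-fold before centring. The list of 8 genes, which also holds *Npas3* (4065.2 in KN1 against 30.6, 276.7 and 609.7), had medians of -0.33, -0.94 and -0.61.

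By RPM before centring on length, feedback targets of Wnt signalling differed in the place of KN1 among the lines. In these raw levels KN1 lay near XN1 and below CN4 for *Axin2* and *Nkd1*, and above all 3 other lines for *Lgr5* and *Znrf3*. *Axin2*, a feedback inhibitor induced by Wnt, was at 17.1 RPM in KN1, 3.01 in XN4, 20.9 in XN1 and 94.9 in CN4, and *Nkd1* at 14.5, 3.44, 11.7 and 47.5 in the same order. *Lgr5*, a receptor for R-spondins, was at 109.4 in KN1 against 0.265, 6.12 and 60.8, and *Znrf3* at 227.6 against 33.4, 38.4 and 93.9. None of the 8 compared passed 4-fold against all 3 lines, and the medians were 2.12, 0.41 and -1.08. Of these 8, 3 (37.5%, beside 31.7% of all genes compared) had their highest raw level in KN1 and 0 (beside 36.9%) their lowest. A further 7 of the 17 members found in the data were not listed in KN1 and could not be called lower. Of 23 Wnt ligands, receptors and transducers, none was called against all 3 lines and the medians were -0.60, -0.73 and -0.63, with *Ctnnb1*, which encodes beta-catenin, at 210.0 in KN1 against 800.7, 823.0 and 1108.6, and the ligand *Wnt7a* at 55.5 against 0, 24.0 and 27.5.

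In the Notch pathway, 14 genes were compared and the medians were 2.18, 0.58 and -0.78. The target *Hes5* was at 56.2 RPM in KN1, 0 in XN4, 10.3 in XN1 and 77.8 in CN4, and *Lfng*, which modifies Notch receptors, at 187.6 against 18.2, 53.6 and 146.0. *Rbpj*, the DNA-binding partner of Notch, was called lower than all 3 lines after centring, at 59.7 against 133.3, 80.1 and 90.4, and is in the longest class, where its raw log2 ratios were -1.16, -0.42 and -0.60.

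KN1 was grown with EGF and FGF2. Of 16 genes of these pathways compared, *Fgfr3* was called higher than all 3 lines, beside 1.6% of all genes. It was at 74.4 RPM against 3.66, 2.08 and 20.2, with a raw log2 ratio to CN4 of 1.88 that passed 4-fold after centring. The EGF receptor gene *Egfr* was at 520.3 against 85.7, 142.1 and 145.9 and the ERBB receptor gene *Erbb4* at 1165.2 against 2.70, 91.1 and 55.9, both long genes. The feedback genes *Spry1* (54.0 against 311.0, 263.0 and 245.3) and *Spred1* (153.2 against 445.5, 628.8 and 395.5) were lowest in KN1. Of the 16 genes, 4 (25.0%, beside 36.9% of all genes compared) had their lowest raw level in KN1. The highest raw level was in KN1 for 5 (31.25%, beside 31.7%), and the list's medians were 0.06, -0.77 and -0.07. Of 14 genes of BMP and TGF-beta signalling none was called against all 3 lines, and the medians were -0.62, -0.72 and -1.09. Among these 14, 9 (64.3%, beside 36.9% of all genes compared) had their lowest raw level in KN1 and 2 (14.3%, beside 31.7%) their highest. These counts were not set against genes of like length. A further 4 of the 18 members were not listed in KN1. For 9 genes of retinoic acid handling the medians were -2.68, -0.52 and -0.31. Of these, 1 (11.1%, beside 31.7% of all genes compared) had its highest raw level in KN1. The lowest raw level was in KN1 for 3 (33.3%), near the 36.9% of all genes compared.

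In a list of long synaptic and adhesion genes, not all of which encode adhesion molecules, 24 were compared. Of these, 18 (75.0%) had their highest raw level in KN1, beside 70.9% of the longest class and 31.7% of all genes compared. Of the 24, 3 (*Lrrc4c*, *Dpp10* and *Tenm2*) passed the filter only through their KN1 level. *Pcdh9*, a protocadherin, was at 1671.3 RPM in KN1 against 3.59, 5.24 and 165.0. After centring, 3 of 24 were called higher than all 3 lines, beside 1.6% of all genes and 3.43% of the longest class: *Fgf14* (1619.1 against 3.06, 67.5 and 59.0), *Ctnna2* (590.0 against 5.39, 1.30 and 34.3) and *Dpp10* (32.1 against 2.07, 1.04 and 1.26). The medians were 1.91, 1.32 and 0.42 after centring and 3.37, 3.08 and 2.01 before. *Tenm4* was at 12.2 in KN1 against 4.19 in XN4, 203.1 in XN1 and 40.8 in CN4.

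Among 9 nuclear long noncoding RNAs compared, none was called against all 3 lines after centring, and the medians were 1.59, 3.09 and 1.43. *Airn*, which is transcribed antisense to *Igf2r*, was at 1282.5 RPM against 265.4, 83.0 and 86.4, with a raw log2 ratio to XN4 of 2.27 that was 1.79 after centring, and *Igf2r* was called lower than all 3 at 22.3 against 137.6, 175.3 and 91.7; whether the counting used strand is not given in the sources used here, so that reads in their overlap cannot be assigned. *Neat1*, of paraspeckles, was lowest in KN1 at 7.18 against 52.9, 40.8 and 10.9. *Xist*, which coats the inactive X chromosome, was at 2555.2 in KN1, 1836.3 in XN4, 9.24 in XN1 and 1591.0 in CN4. Of the 9 RNAs, 7 (77.8%, beside 31.7% of all genes compared) had their highest raw level in KN1, as *Malat1* did. The other 2 (22.2%, beside 36.9%) had their lowest there. A further 3 of the 13 members found in the data were not listed in KN1 and so are not in these counts.

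Of 22 splicing factor genes, *Pnisr* (2368.9 RPM against 553.6, 198.6 and 284.6) and *Luc7l3* (1762.7 against 416.1, 186.4 and 382.3) were called higher than all 3 lines, beside 1.6% of all genes, and the medians were 0.22, 0.55 and 0.10. Of 24 cytoskeleton and translation genes, *Ubb* was called lower than all 3, 17 (70.8%, beside 36.9% of all genes compared) had their lowest raw level in KN1, and together they summed to 16462 RPM in KN1 against 38510, 63486 and 54122, with medians of -0.78, -1.04 and -1.16. Of 14 glycolysis genes 0 were called against all 3 and 11 had their lowest raw level in KN1, with medians of -0.19, -0.98 and -0.88. Of 30 respiratory chain genes encoded in the nucleus 0 were called and 23 had their lowest raw level in KN1. Their medians were -0.57, -0.70 and -0.75 before centring and -0.12, -0.16 and -0.21 after. Before centring, the shortest length class had medians of -0.47, -0.59 and -0.62 to XN4, XN1 and CN4. The counts of lowest raw levels in these lists were not set against genes of like length, so they are a description.

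Calls against all 3 lines are rare over all genes, so that a count of 0 in a short list is near that background. Of 18 S phase genes and 20 G2-M genes none was called against all 3 lines, with medians of 0.66, 0.36 and -0.56 and of 0.46, 0.36 and -0.30. Of 18 genes of D cyclins, CDK inhibitors and p53 targets none was called either, with medians of -1.25, -0.77 and -0.83; *Ccnd1* was at 279.5 RPM in KN1 against 220.7, 2498.6 and 1343.8, and *Ccnd2* at 1523.4 against 179.8, 1367.3 and 1999.3. The 6 replication-dependent histones compared had medians of 0.69, 0.86 and 0.14, with none called against all 3. Of 18 immediate early and heat shock genes none was called against all 3, and the medians were -0.63, -0.61 and -0.67. In this list 14 (77.8%, beside 36.9% of all genes compared) had their lowest raw level in KN1, with *Fos* at 19.1 against 134.8, 104.9 and 257.7. This count, too, was not set against genes of like length. Of 14 imprinted growth genes *Igf2r* and *Dlk1* (0.653 against 654.7, 8.51 and 5.05) were called lower than all 3, beside 1.18% of all genes. The medians of this list were -1.38, -0.26 and -0.52.

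**Figure D5:**
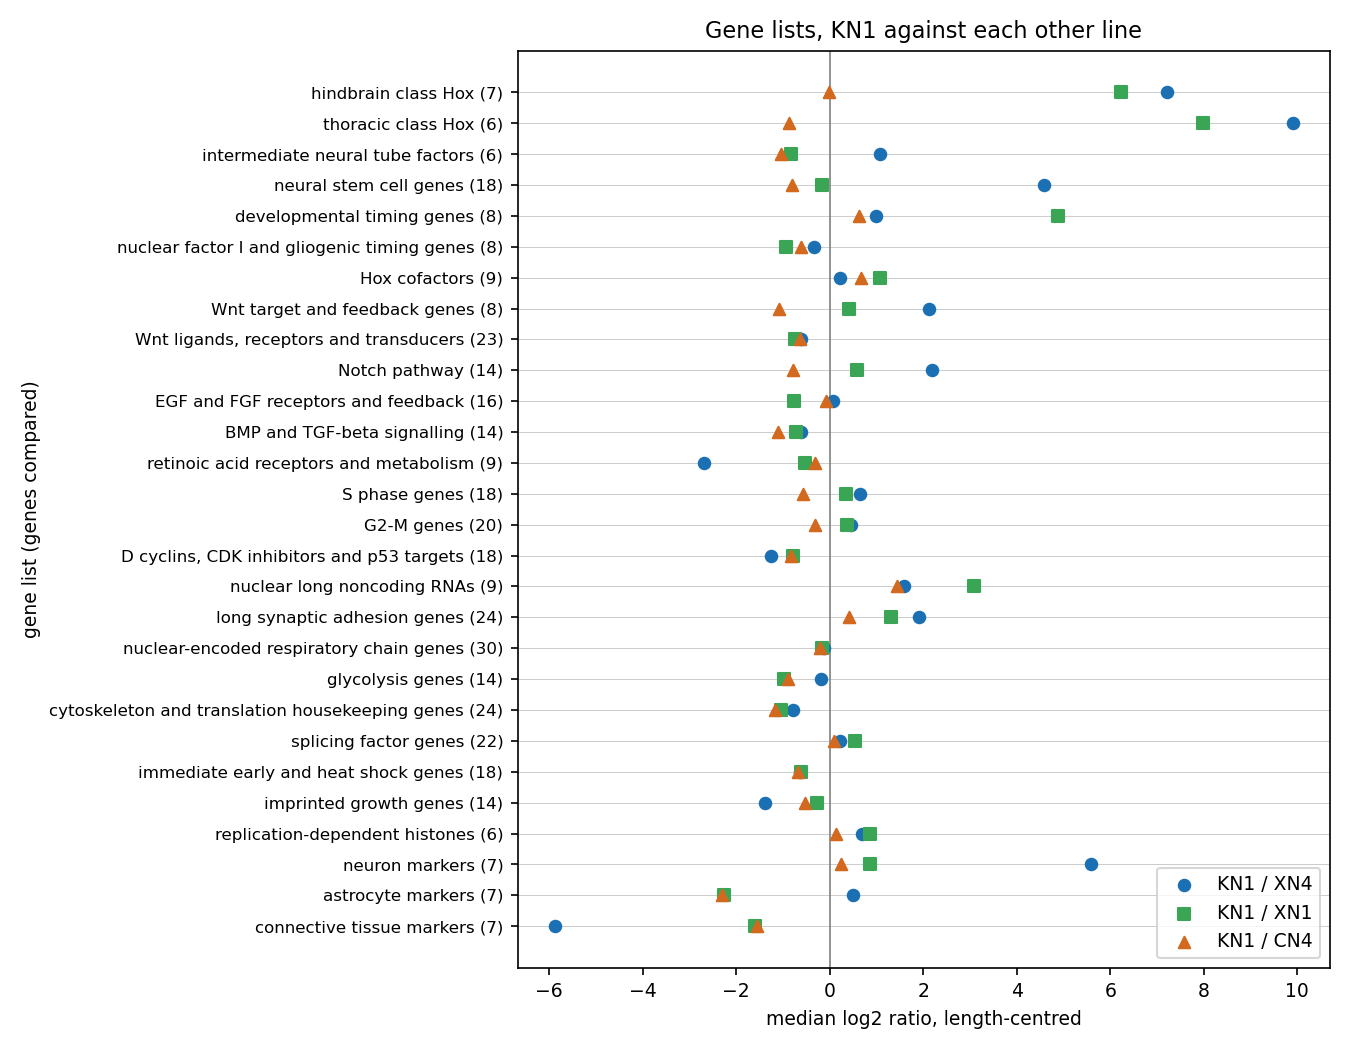
Median length-centred log2 ratio of KN1 to each other line (x) for lists with at least 6 genes compared (y, number of genes in brackets), a line with 0 reads being set at 3 reads. Both Hox lists lie far to the right against XN4 and XN1, while against CN4 the hindbrain class is at -0.01 and the thoracic class at -0.86. The respiratory chain list lies between -0.21 and -0.12, and the splicing, S phase and G2-M lists between -0.56 and 0.66.

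Markers of other cell types differed by list: the summed level was highest in KN1 for neuron and for microglia and blood markers, and lowest for connective tissue, astrocyte and neural crest markers. Their part in the results above was not tested. Of 13 connective tissue markers 5 were not listed, among them *Col1a1*, *Col1a2* and *Pdgfrb*; the list had medians of -5.87, -1.60 and -1.54 over 7 genes and none was called against all 3 lines. Of 11 astrocyte markers 4 were not listed, among them *Gfap* and *Aqp4*, and the list summed to 576 RPM in KN1 against 1015, 1999 and 2406, with *Apoe* called lower than all 3 (30.2 against 223.6, 377.5 and 234.9), *Fgfr3* higher, and medians of 0.49, -2.26 and -2.29. Of 10 oligodendrocyte lineage markers 4, *Sox10*, *Pdgfra*, *Cspg4* and *Mog*, were not listed, and the list summed to 762 against 255, 1883 and 1866, with *Bcas1*, a gene of early oligodendrocytes, called higher than all 3 at 212.5 against 0.409, 21.5 and 47.3.

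Of 14 neuron markers 4 were not listed (*Nefl*, *Nefm*, *Neurod1* and *Neurog2*). The list summed to 1864 RPM in KN1 against 53.8, 911 and 765, of which *Map2* gave 1587.9, while *Tubb3* and *Dcx* were at 4.68 and 1.09. Of the 7 compared, 5 (71.4%, beside 31.7% of all genes and 70.9% of the longest class) had their highest raw level in KN1, 2 passed the filter only through KN1, and none was called against all 3, with medians of 5.58, 0.87 and 0.24. Of 10 epiblast markers 8 were not listed, *Nanog* among them, and the 10 summed to 8.27 in KN1 against 1.59, 26.6 and 3.83. Of 10 mesoderm markers 3 were listed, with a sum of 16.8 against 127, 5.34 and 4.53. Of 10 microglia and blood markers 3 were listed, and their sum was highest in KN1, at 18.7 against 10.4, 3.22 and 3.31. Neural crest markers summed to 48.0 against 283, 317 and 463, with 7 of 10 not listed and *Ets1* called lower than all 3 (13.6 against 109.1, 43.9 and 60.3, with a raw log2 ratio to XN1 of -1.69 that passed 4-fold after centring).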

How the data were processed

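Polyadenylated RNA of single cells was captured with BD Rhapsody, after storage of dissociated cells at 4 °C in a preservative, and 1 library was made per line. Deposited tables with a count of reads per gene and cell were used for XN4, XN1 and CN4, and for KN1 such a table was not analysed here. The 4 normalized tables deposited by the authors hold a natural log, ln(1 + 10000 × reads / total), without ribosomal protein and mitochondrial genes, on the mm10 build with Seurat 4.3.0 per the submitters' processing notes. These are counts of reads, not of molecular identifiers. The aligner settings of KN1 are not given in the sources used here. Every log value came back as whole reads within 0.01, and 0 values differed from the deposited counts of the same cells.

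Reads were summed per line and divided by the total of the normalized table (reads per 1000000 reads, RPM). Genes not listed in another line's normalized table were read from its count table over the same cells. Gene lengths and positions came from GENCODE M21 (GRCm38, the build of the files). Genes with a mean of at least 5 RPM were centred on the median of 10 length classes and called at 4-fold; a line with 0 reads was set at 3 reads. Shares have exact 95% intervals. On simulated reads, 99.0% to 100% of 8-fold higher and 98.0% to 100% of 8-fold lower genes were recovered over the 3 comparisons. These changes lie above the 4-fold threshold and were set against 1 line at a time. The simulation therefore does not show the recovery of genes near the threshold or of calls against all 3 lines. No cell was removed as a doublet, and no caller was run. Named genes were the 4 markers, members of the lists, the 15 largest ratios to the nearest line in each direction with reads in at least 10% of KN1 cells (higher) or of the cells of every other line (lower), and the 10 unlisted genes with the highest minimum elsewhere; names of predicted genes were left out. Some genes that these rules take are not reported here. The genes and lists were chosen with earlier results of these data known. Python 3.11.15, numpy 2.4.6, scipy 1.17.1 and pandas 2.3.3 were used.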

Additional observations from a re-analysis of the deposited data

How the results depend on the processing

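The limits are those of 1 library per line, of reads that are not molecules, and of a KN1 library with few genes per cell. Over the alternatives, 95 of 120 counts of called genes stayed within 1.5 times the reported count and 24 of 39 length contrasts stayed within the reported interval. Counts are given here as higher, then lower. At 2-fold, KN1 was called against all 3 lines for 908 and 864 genes, against XN4 for 2326 and 2136, against XN1 for 2269 and 2277, and against CN4 for 1900 and 1851. Without length classes, 395 genes were higher than all 3 lines and 884 higher than CN4, and with merged exon length 335 and 761. With a mean of at least 1 RPM, 379 genes were higher than all 3 lines, 1214 higher than XN1 and 960 higher than CN4. With a mean of at least 20, 104 were higher than all 3 lines and 660, 439 and 292 higher than XN4, XN1 and CN4, while 462 and 240 were lower than XN1 and CN4. With each gene counted once per cell, 78 genes were lower than all 3 lines. The length contrast against XN4, XN1 and CN4 was 1.32, 1.68 and 1.58 with 5 classes, 2.44, 2.82 and 2.65 with 20, and 1.00, 1.27 and 1.11 with merged exon length. It was 1.59 against XN4 with each cell weighted equally, and 2.04 and 1.98 against XN1 and CN4 with each gene counted once per cell. With only the 254 KN1 cells of low long-gene share, a choice made after seeing the data, it was -0.21, 0.21 and 0.0385, and 322 genes were lower than all 3 lines and 616 lower than CN4. With the mean of at least 5 RPM taken over the 3 other lines, also chosen after seeing the data, 102 genes were higher than all 3 lines. The 2-fold threshold, the filters and the cell choice act by construction; the other causes were not tested.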
